A study of Mus musculus with 72 samples.

Results

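The 10 genes described here were singled out in mouse liver for their link to body temperature: the heat shock genes Hspa1b, Hspa2, Hspa8, Hsph1, Dnajb1, Bag3, Hsp90aa1 and Ahsa1, and the cold-inducible RNA binders Cirbp and Rbm3. Members were chosen by their measured daily rhythm and by the direction of their difference between the labelled genotypes, so those values are given below as a description without a test. A member needed a probe set annotated with its symbol alone, and the probe set of highest mean was used. By this rule 9 of the 10 genes were measured, of 22180 genes in all, and all 9 were above the filter on low values that left 13308 genes for testing. The only probe set of Rbm3 is annotated to Rbm3-ps as well, a pseudogene by its symbol, so it enters no count below.

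Livers were collected every 4 h under 12 h of light and 12 h of dark, from zeitgeber time (ZT) 0, which is lights-on, to ZT 20, and their RNA was hybridised to 72 single-colour Affymetrix arrays. The SIRT6 cohort, on the background labelled 129 mixed, set WT livers against livers with a liver-specific knockout (KO) of SIRT6. The SIRT1 cohort, on C57BL/6, did the same for a liver-specific knockout of SIRT1. With 2 genotypes and 6 times a cohort there were 24 groups, each of 3 arrays. SIRT6 and SIRT1 are NAD-dependent deacylases, and the series asked what each contributes to expression over the circadian cycle. The labels give neither the driver of the liver deletion nor the deleted part of either gene, nor the age of the mice, and do not say that each array came from another mouse, so a p-value here covers only the spread among these arrays, which may be technical. Strain and cohort cannot be told apart from the gene that was targeted, so each knockout is set against its own WT.

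The heat shock response is run by the transcription factor HSF1, which is held inactive by chaperones and released when unfolded protein draws them away. HSF1 trimers then bind arrays of short inverted repeats, the heat shock elements, ahead of the chaperone genes. In rodents body temperature is higher in the dark phase, when the animals are active and feed, and in liver some heat shock transcripts follow this cycle even where the hepatocyte clock is stopped. CIRBP and RBM3 run the other way: they are RNA-binding proteins whose transcripts accumulate when cells are mildly cooled.

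RefSeq promoter entries (build GRCm38.p6) were matched for 7 of the 10 genes: Hspa1b, Hspa2, Hsph1, Dnajb1, Bag3, Ahsa1 and Cirbp. The 250 bases ahead of the start were searched on both strands for a pair of facing heat shock units, GAANNTTC or TTCNNGAA, which are each their own reverse complement. The 7 genes had 10 windows, and a gene was counted if any of its windows matched. The shares of all windows given beside these counts are per single window, which is another unit. A pair was found for 2 of the 7 genes, Hspa1b and Hsph1, and in 12.8% of the 32851 windows of this length in the table. A run of 3 alternating units was found in 0 of the 7 genes and in 0.466% of all windows. The E-box CACGTG, the clock factors' site, was found for Hsph1 alone of the 7, in the window of its more downstream start at base -19, and in 6.02% of all windows. The windows of Hspa1b and Hsph1 are shown as the genes of the widest daily swing, and that of Cirbp as the gene in the opposite phase. Capitals mark a pair of facing units, which starts at base -104 in Hspa1b and at base -33 in this Hsph1 window. No match says only that these letters are not in this window.
Hspa1b, chr17:34959239-34959488, minus strand: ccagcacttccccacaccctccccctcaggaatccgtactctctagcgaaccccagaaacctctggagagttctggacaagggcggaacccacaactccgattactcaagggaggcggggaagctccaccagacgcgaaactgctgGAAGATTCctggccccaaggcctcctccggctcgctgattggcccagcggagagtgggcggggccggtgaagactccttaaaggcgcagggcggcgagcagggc
Hsph1, chr5:149636337-149636586, minus strand: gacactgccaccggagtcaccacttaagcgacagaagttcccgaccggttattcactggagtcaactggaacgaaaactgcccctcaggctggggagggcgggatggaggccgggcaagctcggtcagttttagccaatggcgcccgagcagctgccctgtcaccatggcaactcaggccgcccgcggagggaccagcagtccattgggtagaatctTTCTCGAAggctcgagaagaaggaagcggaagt
Cirbp, chr10:80167589-80167838, plus strand: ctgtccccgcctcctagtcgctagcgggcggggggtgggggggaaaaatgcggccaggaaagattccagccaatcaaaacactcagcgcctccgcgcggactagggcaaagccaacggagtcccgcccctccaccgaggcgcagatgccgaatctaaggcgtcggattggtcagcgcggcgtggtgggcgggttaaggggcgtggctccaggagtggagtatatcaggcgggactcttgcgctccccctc

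The arrays were compared first. Median probe set intensity ranged from 43.9 to 52.9 over the SIRT6 arrays and from 44.4 to 53.8 over the SIRT1 arrays, and the lowest correlation of replicates across genes was 0.90 and 0.97. A single component of all genes held 52.6% of the within-group variance of the SIRT6 arrays and 18% of that of the SIRT1 arrays. The Sirt6 probe set went against its label: it lay between 7.76 and 8.07 in the arrays labelled SIRT6 KO and between 7.01 and 7.60 in their WT, on the log2(intensity + 16) scale used for all levels here. The difference was 0.57 ± 0.05 (SE, 18 arrays each, limma adjusted p = 8.89e-09) and the groups did not overlap. Sirt1 lay between 8.50 and 8.94 in the arrays labelled SIRT1 KO and between 8.40 and 8.96 in their WT, so the groups overlapped throughout. Since the deleted part is not given, neither probe set checks the deletion, and each direction below rests on the labels. Among the liver cell markers, all 10 hepatocyte genes were measured above the filter, with summed intensities of 45020 to 59920 over the 72 arrays, 1612 to 17590 for 12 Kupffer cell genes and 408.3 to 4589 for 10 lymphocyte genes, of which 3 were under the filter.

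The fitted peaks of the heat shock genes lay in the dark phase and those of Cirbp in the light. A 24 h cosine was fitted to the 18 arrays of each cohort and genotype, with the amplitude as fitted peak minus trough on the log2 scale. The fitted peaks of the 8 heat shock genes ranged from ZT 12.9 to 17.3 for the SIRT6 cohort's WT and from ZT 12.5 to 18.1 for its KO, from ZT 12.9 to 20.15 for the SIRT1 cohort's WT and from ZT 13.8 to 19.35 for its KO. Cirbp peaked at ZT 3.6, 4.7, 5.6 and 6.6 in the same 4 sets. Past an adjusted p of 0.05 were 6, 8, 7 and 8 of the 9 members, beside 10.1%, 10.6%, 18.3% and 23.2% of all genes tested, and since rhythm chose the members nothing is read from this. Among all genes past the threshold, 15%, 53.4%, 40% and 21.9% peaked between ZT 12 and 21.

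**Figure D1:**
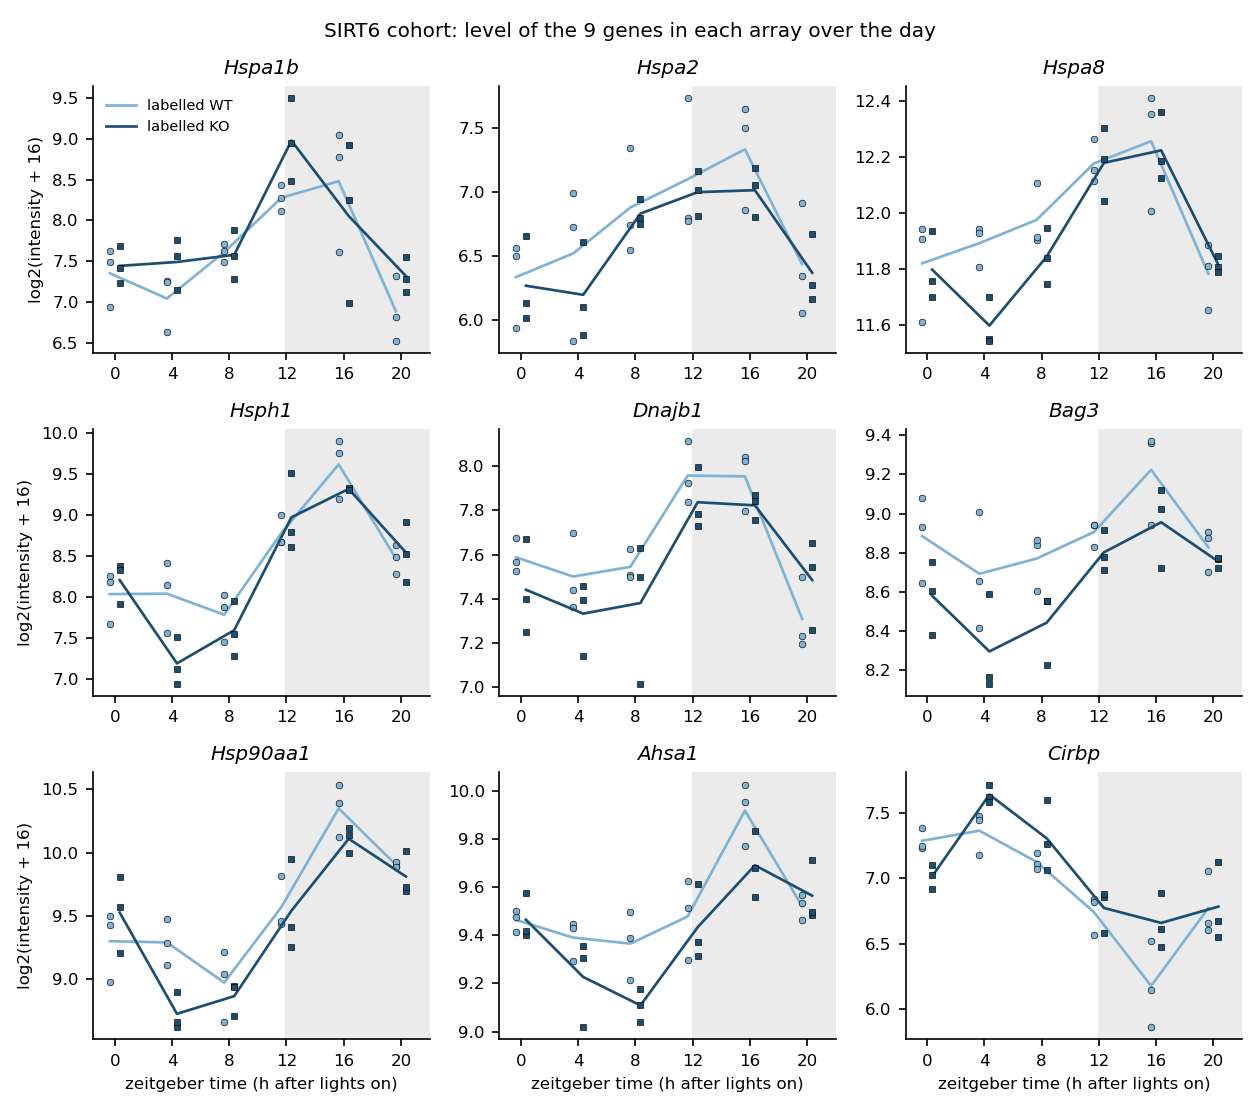
Levels, as log2(intensity + 16), of the 9 measured genes against zeitgeber time in the SIRT6 cohort; each symbol is 1 array, lines join group means of 3 arrays, and the dark phase is shaded. Heat shock genes are high at ZT 12 or 16 and Cirbp is lowest at ZT 16, in WT at a mean of 6.18 and in KO at 6.66.

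**Figure D2:**
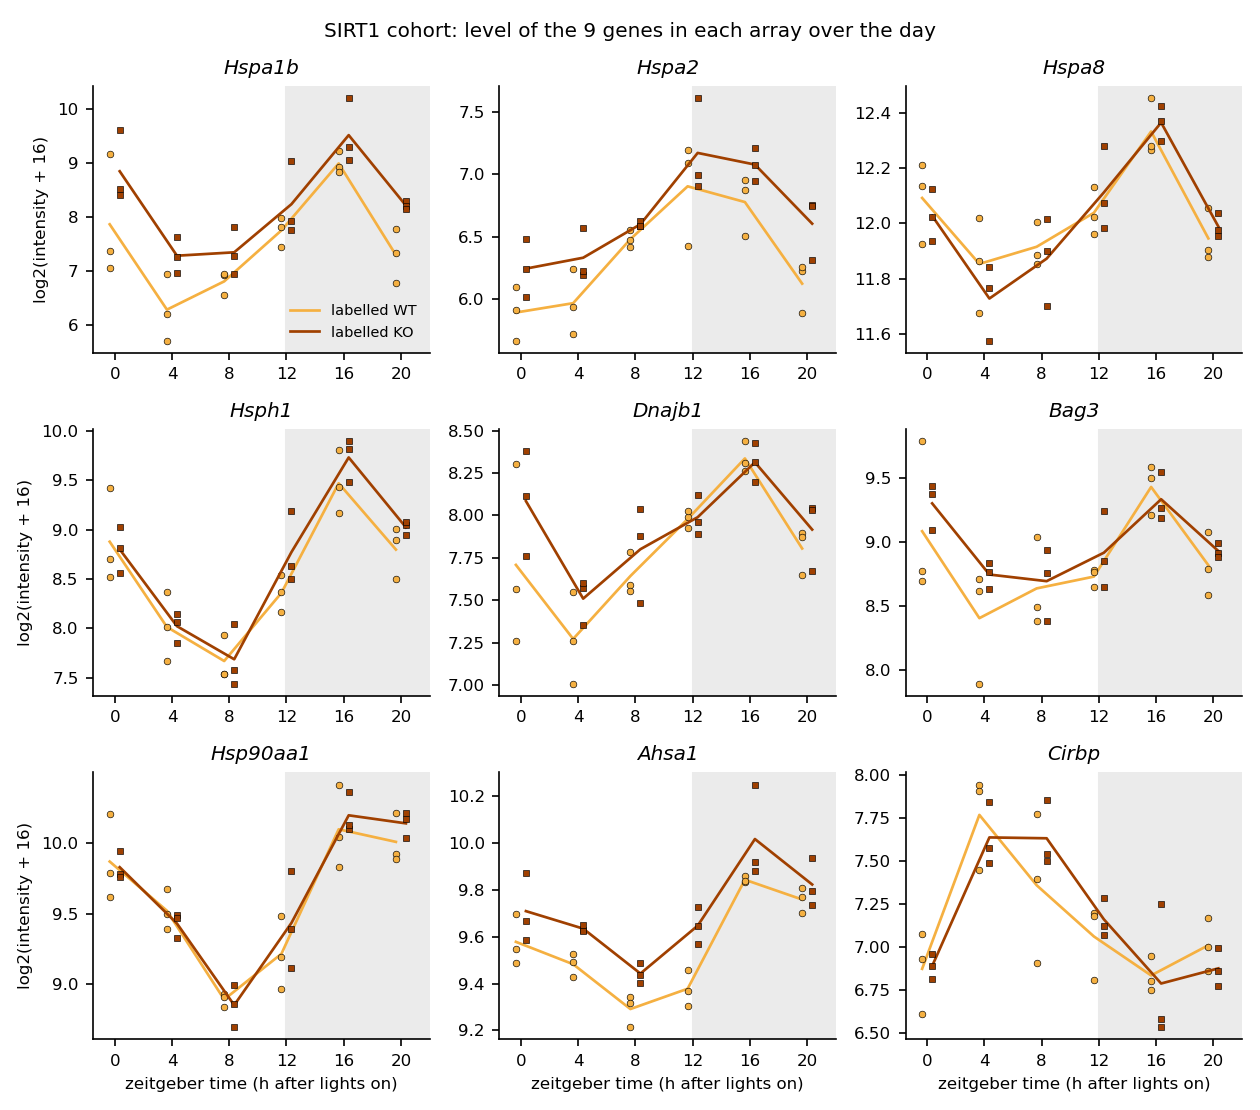
The same plot for the SIRT1 cohort. Hspa1b in the KO lies above the mean of the WT at the same time in all 18 arrays, and 1 WT array at ZT 0 reads 9.16 where the other two read 7.38 and 7.07.

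Hspa1b, the stress-inducible cytosolic Hsp70 that refolds damaged protein, had the widest swing of the members in the SIRT1 cohort. In the SIRT1 cohort's WT it read 6.95, 6.20 and 5.72 at ZT 4 and 8.92, 9.22 and 8.83 at ZT 16, so the 2 groups of 3 did not overlap and their means differed 6.49-fold. In its KO it read 6.97, 7.26 and 7.63 at ZT 4 and 9.29, 10.20 and 9.05 at ZT 16. Both genotypes were low at ZT 4 and high at ZT 16, and the fitted amplitude was 1.95 ± 0.44 (SE, 18 arrays) in WT and 1.78 ± 0.39 in KO. The high times of the SIRT6 cohort were ZT 12 and 16: the WT read 8.28, 8.43 and 8.12 at ZT 12 and 8.78, 9.05 and 7.61 at ZT 16, and fell to 6.53, 6.82 and 7.32 at ZT 20. Its KO read 9.50, 8.95 and 8.48 at ZT 12 and 8.93, 8.25 and 6.98 at ZT 16, where the 3 arrays spread most (SD 0.99). Here the amplitude was 1.40 ± 0.32 in WT and 1.31 ± 0.36 in KO. Hspa1a and Hspa1b are near-identical copies, and the probe set annotated to both, whose mean of 5.73 and 5.86 in the 2 cohorts lay under the filter on low values, had amplitudes of 0.21 to 0.44 in the 4 sets, so signal from one copy on the other's probes cannot be told apart.

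Hspa8, the constitutive Hsc70 that carries out most housekeeping folding, moved over a much narrower range. In the SIRT1 cohort's KO it read 11.58, 11.84 and 11.77 at ZT 4 and 12.30, 12.37 and 12.42 at ZT 16, with no overlap and a difference in means of 1.56-fold. Amplitudes were 0.43 ± 0.10 and 0.58 ± 0.08 in the SIRT6 cohort's WT and KO, and 0.32 ± 0.10 and 0.49 ± 0.09 in the SIRT1 cohort. The 3 other probe sets of Hspa8 alone had amplitudes of 0.35 to 0.79, and their WT peaks lay between ZT 13.6 and 13.8 in the SIRT6 cohort and from ZT 17.1 to 17.97 in the SIRT1 cohort. Their KO peaks lay from ZT 15.4 to 16.9 in the SIRT6 cohort and from ZT 16.1 to 16.8 in the SIRT1 cohort. The probe set it shares with the small nucleolar RNA gene Snord14e swung more widely, by 1.09 to 1.92. Hspa2, a Hsp70 best known from spermatogenesis, peaked early, between ZT 12.8 and 13.8, with amplitudes of 0.93 to 1.1 in the 4 sets. In the SIRT1 cohort's WT it read 6.10, 5.91 and 5.67 at ZT 0 and 6.42, 7.09 and 7.19 at ZT 12. Hspa2 was weakly expressed: its WT means there at ZT 0 and ZT 4, 5.89 and 5.96, lay under 6.00. That is the cut of the filter, which was applied to the mean of all arrays.

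Hsph1, the Hsp110 that acts as nucleotide exchange factor for Hsp70, showed a wide and regular swing. In the SIRT6 cohort's KO it read 7.51, 7.12 and 6.95 at ZT 4 and 9.32, 9.33 and 9.30 at ZT 16, which is a difference in means of 4.35-fold without overlap. The WT read 8.42, 7.56 and 8.14 at ZT 4 and 9.89, 9.76 and 9.19 at ZT 16. Amplitudes were 1.52 ± 0.26 in WT and 1.99 ± 0.23 in KO, with peaks at ZT 15.9 and 16.2. They were 1.51 ± 0.24 and 1.76 ± 0.20 in the SIRT1 cohort, with peaks at ZT 18.6 and 17.8, and the lowest group was ZT 8, at 7.93, 7.54 and 7.54 in WT and 8.05, 7.58 and 7.44 in KO.

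Dnajb1, the Hsp40 that delivers clients to Hsp70 and stirs its ATPase, and Bag3, the co-chaperone that links Hsp70 to selective autophagy, had shallower rhythms. Dnajb1 read 7.26, 7.55 and 7.01 at ZT 4 and 8.31, 8.44 and 8.26 at ZT 16 in the SIRT1 cohort's WT, where its amplitude was 0.86 ± 0.16. In the other 3 sets the amplitude was 0.49 to 0.56. Bag3 had amplitudes of 0.38 to 0.70, and in the SIRT6 cohort's WT its highest group, at 9.36, 9.37 and 8.94 (ZT 16), overlapped its lowest, at 9.01, 8.42 and 8.65 (ZT 4). For the other members, and for Bag3 in the other sets, the highest and the lowest group of 3 did not overlap. These groups were picked for each gene and set by their means, and rhythm chose the members, so nothing is read from this. The share of all genes without such an overlap was not counted.

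Hsp90aa1, the inducible Hsp90 that matures kinases and steroid receptors, peaked later than Hspa1b, Hspa2, Hspa8 and Hsph1 in each of the 4 sets. In the SIRT6 cohort's WT it read 9.04, 8.66 and 9.22 at ZT 8 and 10.54, 10.39 and 10.12 at ZT 16, and in the SIRT1 cohort's WT 8.93, 8.91 and 8.84 at ZT 8 and 9.83, 10.41 and 10.04 at ZT 16. The peaks lay at ZT 17.3 and 17.6 in the SIRT6 cohort's WT and KO and at ZT 20.15 and 19.35 in the SIRT1 cohort, with amplitudes of 1.15 to 1.36. Ahsa1, which speeds the ATPase of Hsp90, peaked alongside it between ZT 16.8 and 19.3. Its replicates were tight: the SIRT1 cohort's WT read 9.83, 9.86 and 9.84 at ZT 16 and 9.21, 9.34 and 9.32 at ZT 8. The amplitude of Ahsa1 was 0.42 to 0.53 in the 4 sets.

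Cirbp was highest at ZT 4 and lowest at ZT 16 in all 4 sets. The SIRT6 cohort's WT read 7.18, 7.48 and 7.45 at ZT 4 and 5.86, 6.14 and 6.52 at ZT 16, a fall of 2.28-fold between means. Its KO read 7.62, 7.59 and 7.72 at ZT 4 and 6.47, 6.89 and 6.62 at ZT 16. The SIRT1 cohort's Cirbp read 7.45, 7.94 and 7.91 at ZT 4 and 6.95, 6.75 and 6.81 at ZT 16 in WT, and 7.57, 7.84 and 7.49 against 6.54, 7.25 and 6.58 in KO, with no overlap in either. Over the 24 group means, each cohort centred on its mean, Cirbp correlated at r = -0.87 with the average of the 8 standardized heat shock genes, and from r = -0.47 (Hspa2) to r = -0.90 (Hsph1) with each. These r are descriptions over means that share the 6 times. The probe set annotated to Rbm3 and Rbm3-ps peaked between the 2 phases, at ZT 9.8 and 10.6 in the SIRT6 cohort and ZT 11.25 and 11.56 in the SIRT1 cohort, with amplitudes of 0.62 to 0.85.

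**Figure D3:**
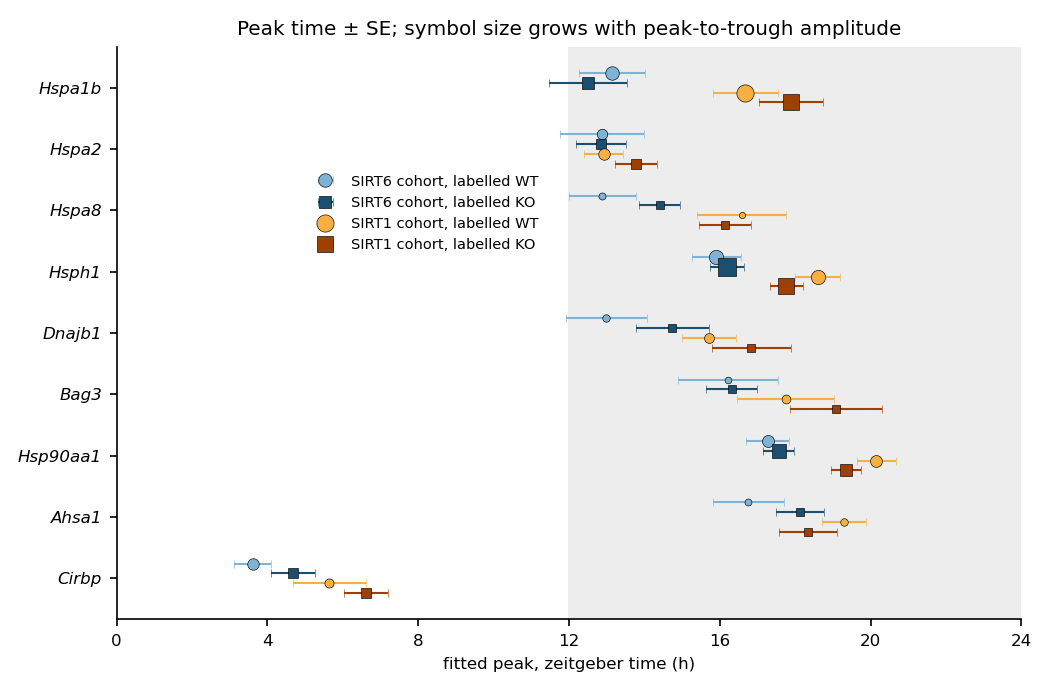
Fitted peak time with its standard error for each gene in the 4 sets of 18 arrays; symbol size grows with amplitude and the dark phase is shaded. The heat shock genes lie between ZT 12.5 and 20.15 and Cirbp between ZT 3.6 and 6.6.

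Whether the daily rhythm differs between the labelled genotypes was not used in choosing the members and was tested by genotype by cosine terms over the 36 arrays of a cohort. Of the 9 members 0 passed in the SIRT6 cohort, with unadjusted p from 0.187 to 0.999 and limma adjusted p from 0.762 to 0.999, and 0.00751% of all genes did (1 gene, Tnnc1, named after its value was seen: amplitude 0.84 in WT and 0.16 in KO, adjusted p = 0.0366), while 1098 had an unadjusted p under 0.05. For the SIRT1 cohort 0 of 9 passed, with unadjusted p from 0.308 to 0.638 and adjusted p from 0.768 to 0.886, and 0% of all genes did, while 965 had an unadjusted p under 0.05. The differences are not tightly bounded. For Hsph1 the KO amplitude was 0.46 higher in the SIRT6 cohort (95% interval -0.23 to 1.15) and 0.25 higher in the SIRT1 cohort (-0.35 to 0.85). For Cirbp KO minus WT amplitude was -0.17 (-0.57 to 0.22) and 0.19 (-0.26 to 0.65). For Hspa1b the interval ran from -1.03 to 0.85 and from -1.33 to 0.99. Peaks in the KO were between 0.63 h earlier and 1.75 h later than in WT in the SIRT6 cohort, and between 0.95 h earlier and 1.34 h later in the SIRT1 cohort.

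Averaged over the 6 times, heat shock genes read lower in the arrays labelled SIRT6 KO and higher in those labelled SIRT1 KO than in their own WT. The choice of members used both directions, so these values carry no test. Of the 8 genes 7 were lower in the SIRT6 cohort, with a median difference of -0.12, beside 0.0035 over all genes tested. Likewise 7 of the 8 were higher in the SIRT1 cohort, with a median of 0.14, beside -0.0017 over all genes. With each array centred on its median the medians were -0.15 and 0.19, and 7 of 8 and 8 of 8 had these directions. In whole-liver RNA, fewer cells of a type and less RNA per cell cannot be told apart.

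Hspa1b stood apart from its family. Over the 18 arrays labelled SIRT1 KO it ran from 6.94 to 10.20 with a median of 8.17, and over their WT from 5.72 to 9.22 with a median of 7.36. The 2 ranges overlapped across the day, but at matched time all 18 KO arrays were above the WT mean, and the average difference was 0.74 ± 0.17 (SE), or 1.67-fold. The gap was widest at ZT 4 and ZT 0, at 1.00 and 0.98, and narrowest at ZT 12, at 0.48. The probe set shared with Hspa1a, which lay under the filter on low values, read only 0.09 higher in the SIRT1 KO. In the SIRT6 KO that shared probe set read 0.07 higher. Hspa1b was also the heat shock gene that did not read lower in the SIRT6 cohort: the KO ran from 6.98 to 9.50 with a median of 7.57, the WT from 6.53 to 9.05 with a median of 7.55, and the difference was 0.20 ± 0.15, with 13 of 18 KO arrays above the WT mean.

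Beside Hspa1b, Hspa2 and Ahsa1 gave the most regular differences in the SIRT1 cohort, Hspa2 at levels near the filter on low values. Hspa2 ran from 6.01 to 7.61 (median 6.61) in the KO and from 5.67 to 7.19 (median 6.34) in WT, and all 18 KO arrays lay above the WT mean of their time, by 0.31 ± 0.08 on average. Hspa2 went the other way in the SIRT6 cohort, by -0.15 ± 0.12, lower at all 6 times, with 13 of 18 KO arrays below. Ahsa1 ran from 9.40 to 10.25 (median 9.66) in the SIRT1 KO and from 9.21 to 9.86 (median 9.51) in WT, with 17 of 18 KO arrays above and a difference of 0.16 ± 0.03. Ahsa1 differed by -0.11 ± 0.04 in the SIRT6 cohort, with 15 of 18 KO arrays below.

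Bag3 was the member whose drop in the SIRT6 cohort was most regular. It ran from 8.13 to 9.12 (median 8.72) in the KO and from 8.42 to 9.37 (median 8.89) in WT, lower at all 6 times and in 17 of 18 KO arrays, by 0.25 ± 0.06 on average (KO minus WT -0.25). Bag3 differed by 0.14 ± 0.09 in the SIRT1 cohort, with 14 of 18 KO arrays above. Hsph1 and Hsp90aa1 differed most at ZT 4 in the SIRT6 cohort, where Hsp90aa1 read 8.89, 8.62 and 8.66 in the KO against 9.28, 9.11 and 9.47 in WT, and Hsph1 differed by -0.85. Averaged over times, Hsph1 differed by -0.15 ± 0.10 and Hsp90aa1 by -0.13 ± 0.07, and in the SIRT1 cohort by 0.14 ± 0.09 and 0.05 ± 0.06. In the SIRT6 KO Hsph1 read lower at 3 times and higher at 3, and Hsp90aa1 lower at 5 and higher at 1. These SIRT6 averages include the ZT 4 gaps of -0.85 and -0.57, and averages without ZT 4 were not calculated. Dnajb1 differed by -0.09 ± 0.06 and 0.15 ± 0.07 in the 2 cohorts. Hspa8 barely differed, by -0.07 ± 0.04 and -0.01 ± 0.04, and in the SIRT1 cohort the sign of Hspa8 turned under quantile normalization and under centring (0.01 and 0.03). Cirbp read 0.12 ± 0.07 higher in the SIRT6 KO, with the widest gap at ZT 16 (0.48), and 0.01 ± 0.07 higher in the SIRT1 KO.

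**Figure D4:**
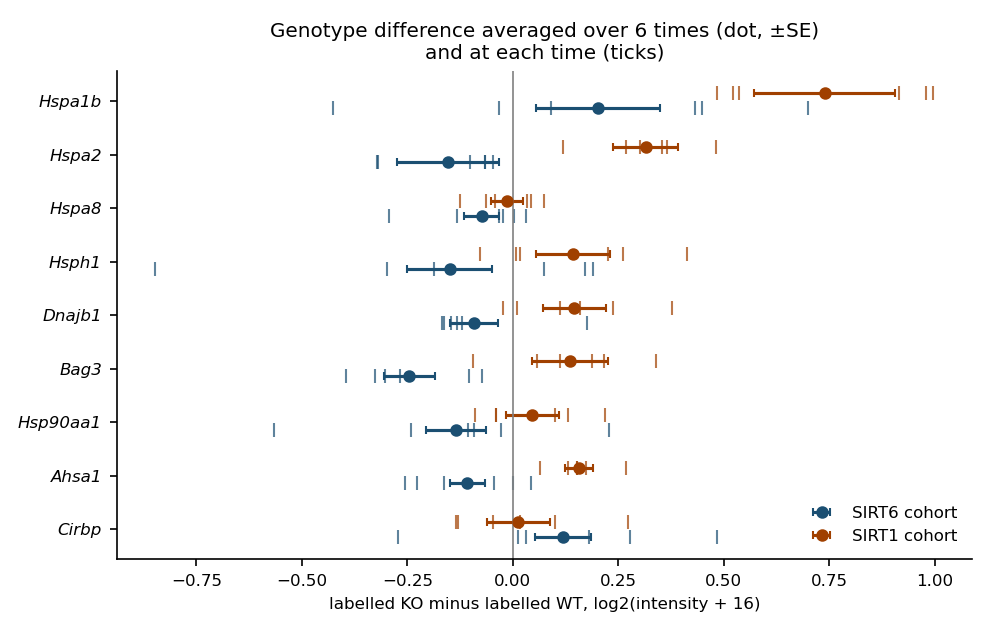
Labelled KO minus labelled WT for each gene and cohort on the log2(intensity + 16) scale; dots with bars are the average over 6 times with its standard error, and ticks the difference at each time. Hspa1b, Hspa2 and Ahsa1 in the SIRT1 cohort and Bag3 and Hspa2 in the SIRT6 cohort keep 1 side of zero at all 6 times.

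Past an adjusted p of 0.05 for the averaged difference were 1 member in the SIRT6 cohort, Bag3 lower, and 3 in the SIRT1 cohort, Hspa1b, Hspa2 and Ahsa1 higher. Over all genes 3.39% were higher and 3.22% lower in the SIRT6 KO, and 1.06% higher and 1.21% lower in the SIRT1 KO. The difference between the 2 knockout effects (SIRT1 minus SIRT6) was 0.54 ± 0.23 for Hspa1b, 0.47 ± 0.15 for Hspa2, 0.38 ± 0.11 for Bag3, 0.26 ± 0.05 for Ahsa1 and -0.11 ± 0.10 for Cirbp. It was past the threshold for 3 members (Hspa2, Bag3 and Ahsa1), beside 3.22% of all genes higher and 2.54% lower. The rule used these contrasts, so nothing is read from the counts.

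Markers of other liver cells were read beside these differences, and 0 of the Kupffer, lymphocyte, stellate, endothelial and bile duct cell genes passed in either cohort. Of 12 Kupffer cell genes 11 read higher in the SIRT6 KO (median 0.17) and 11 lower in the SIRT1 KO (median -0.10). Their summed intensity ran from 2301 to 14430 in the SIRT6 cohort's WT, from 2961 to 17590 in its KO, from 2470 to 6419 in the SIRT1 cohort's WT and from 1612 to 5879 in its KO. Of 8 stellate cell genes 8 read higher in the SIRT6 KO and 7 in the SIRT1 KO (medians 0.08 and 0.06), so most read higher in both. Of 7 endothelial genes 3 read higher in the SIRT6 KO and 0 in the SIRT1 KO (medians -0.02 and -0.06), and of 7 lymphocyte genes 6 and 3 (medians 0.12 and -0.02). Of 13 immediate early genes tested, which respond to handling and acute stress, 0 passed in either cohort (medians 0.0045 and -0.03). Of 10 hepatocyte genes Serpina1a passed in the SIRT1 cohort, at -0.12 ± 0.03 (limma adjusted p = 0.0454, lost without any 1 of 27 of the 36 arrays). Of 17 acute phase genes Orm3 passed in the SIRT6 cohort and Apcs in the SIRT1 cohort, with values given in the closing section. The part of these markers in the differences above was not tested.

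Arrays of one group also differ among themselves, and this spread was not used to choose the members. After the group mean was removed, all 28 pairs of heat shock genes correlated positively over the 36 arrays of the SIRT6 cohort, at r = 0.07 to 0.70 (median 0.43), and all 28 in the SIRT1 cohort, at r = 0.05 to 0.80 (median 0.48). Of these pairs 13 and 18 passed a two-sided permutation test within groups (100000 permutations, Benjamini-Hochberg over 72 pairs). The share of pairs between a member and any other gene that would pass was not counted. The counts of pairs passed, here and below, are therefore not read as particular to the members. Pooled over the members, the size of r with any other gene had a median of 0.23 and 0.21 and a 95th percentile of 0.58 and 0.54. The median heat shock pair, at 0.43 and 0.48, lay below that pooled percentile. By gene this varied. In the SIRT6 cohort the median r with partners lay above the gene's own percentile for Hsph1 (0.57 against 0.48) and Bag3 (0.57 against 0.505). It lay below for the other heat shock genes. In the SIRT1 cohort it lay below for Hspa2 (0.395 against 0.45) and Ahsa1 (0.30 against 0.63), and above for the others. For Hspa2 in the SIRT6 cohort the median size with any gene was 0.38, beside a median r of 0.41 with its 7 partners. Pairs with Cirbp were mostly negative: all 8 were negative in the SIRT6 cohort (median -0.39, 3 past the threshold) and 7 of 8 in the SIRT1 cohort (median -0.25, 1 past the threshold). The size of r between Cirbp and any other gene had a median of 0.14 and 0.23 and a 95th percentile of 0.41 and 0.545. Both Cirbp medians were thus smaller in size than that percentile, and that of the SIRT1 cohort was near the median size. The pair past the threshold in the SIRT1 cohort, at r = -0.40, was also smaller than the percentile. The difference between the cohorts in these correlations was not tested.

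By Pearson's r Hsph1 passed with all 7 other heat shock genes in each cohort. By rank its pair with Hspa2 in the SIRT1 cohort did not (permutation test of rho, adjusted p = 0.0612). With Bag3 it gave r = 0.80 in the SIRT1 cohort (rho = 0.74, permutation p = 0.00012, adjusted 0.00216; r = 0.74 without the 2 arrays farthest from the median) and r = 0.57 in the SIRT6 cohort (rho = 0.56, permutation p = 0.00312, adjusted 0.0123; r = 0.52). Hspa8 and Hsp90aa1 moved together as closely, at r = 0.76 (rho = 0.76, permutation p = 1e-05, the smallest that 100000 permutations can give, adjusted 0.00072; r = 0.73) and r = 0.70 (rho = 0.66, permutation p = 0.00018, adjusted 0.00216; r = 0.65). By Pearson's r Hspa1b passed with 6 of 7 partners in the SIRT1 cohort and with 1 of 7 in the SIRT6 cohort. By rank its SIRT1 pair with Bag3 did not pass (permutation test of rho, adjusted p = 0.0852). Its SIRT6 pairs with Hsp90aa1 and Ahsa1 passed by rank alone (same test, adjusted p = 0.0414 and 0.0493). Ahsa1 had a median r of 0.37 and 0.30 and passed by Pearson's r with 1 and 2 partners. By rank its SIRT1 pair with Bag3 did not pass (permutation test of rho, adjusted p = 0.0668).

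The negative pairs of Cirbp that passed were with Hsph1 (r = -0.58, rho = -0.64, permutation p = 0.00277, adjusted 0.0117; r = -0.56 without 2 arrays), Hspa8 (r = -0.57, rho = -0.57, permutation p = 0.00269, adjusted 0.0117; r = -0.49) and Bag3 (r = -0.43, rho = -0.40, permutation p = 0.0209, adjusted 0.0442; r = -0.34) in the SIRT6 cohort. The SIRT1 cohort's pair was with Hsp90aa1 (r = -0.40, rho = -0.47, permutation p = 0.0122, adjusted 0.0338; r = -0.37). By rank the SIRT6 cohort's pair of Cirbp with Bag3 did not pass (permutation test of rho, adjusted p = 0.0668). With the replicate number as a block 2 negative Cirbp pairs of the SIRT6 cohort passed, and 0 of the SIRT1 cohort. There the pair of Cirbp with Hsp90aa1 had r = -0.38. Its exception was Ahsa1 in the SIRT1 cohort, at r = 0.42 (rho = 0.30, permutation p = 0.0721, adjusted 0.104; r = 0.27).

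Removing the leading component of all genes within groups left 26 of 28 heat shock pairs positive in each cohort (medians 0.35 and 0.46) and 8 of 8 and 7 of 8 Cirbp pairs negative (medians -0.40 and -0.42). Within the light-phase times alone all 28 pairs were positive in both cohorts, and within the dark-phase times 28 and 26 were. The Cirbp pairs of the SIRT1 cohort did not keep their sign in the dark phase, where 5 of 8 were positive. The 1 WT array of the SIRT1 cohort at ZT 0 that stood apart in Hspa1b was also high in Hsph1 (9.42 against 8.70 and 8.52), Bag3 (9.78 against 8.77 and 8.70) and Dnajb1 (8.30 against 7.26 and 7.57). Without it 10 pairs of that cohort passed in place of 19. The count was also 10 to 12 without any 1 of 5 others: the WT arrays of replicate 2 and 3 at ZT 0, 3 at ZT 4 and 2 at ZT 16, and the KO array of replicate 1 at ZT 8.

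**Figure D5:**
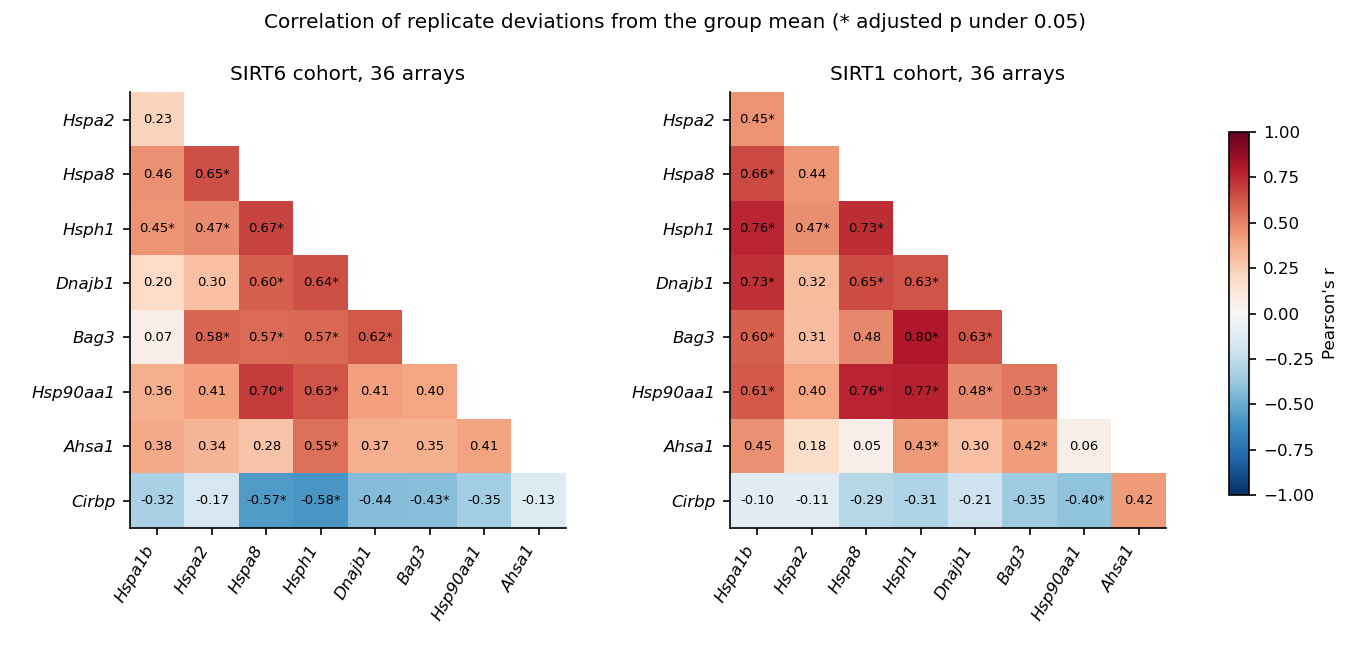
Pearson's r between the deviations of 2 genes from their group mean over the 36 arrays of each cohort; asterisks mark pairs past an adjusted p of 0.05. The heat shock block is positive throughout, and the Cirbp row is negative but for Ahsa1 in the SIRT1 cohort.

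The rest of the chaperone network was read from 8 lists of 83 genes outside the members, of which 71 could be tested. Their rhythms passed for 12 genes (16.9%) in the SIRT6 cohort's WT, 29 (40.8%) in its KO, 32 (45.1%) in the SIRT1 cohort's WT and 30 (42.3%) in its KO, beside the shares of all genes given above. Of those, 8, 28, 16 and 19 peaked between ZT 12 and 21. The median amplitude of the network was 0.24, 0.31, 0.27 and 0.23 in the 4 sets, beside 0.23, 0.20, 0.21 and 0.22 over all genes.

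Among Hsp90 co-chaperones 5, 7, 5 and 5 of 11 tested genes were rhythmic in the 4 sets. Stip1, the adaptor that hands clients from Hsp70 to Hsp90, had amplitudes of 0.71 ± 0.15 and 1.14 ± 0.12 in the SIRT6 cohort (limma adjusted p = 0.0155 and 5.41e-05) and of 0.69 ± 0.13 and 0.78 ± 0.09 in the SIRT1 cohort (0.0034 and 7.98e-06), with peaks between ZT 17.4 and 19.9. Fkbp4, the immunophilin of steroid receptor complexes, peaked between ZT 18.6 and 20.2 with amplitudes of 0.69 to 1.19. Fkbp5, a glucocorticoid-induced immunophilin, peaked earlier, between ZT 13.7 and 13.9, in the 3 sets in which it was among the named genes, with amplitudes of 1.3 to 1.8. Chordc1 and Cacybp, which bind Hsp90, were rhythmic in all 4 sets, with peaks between ZT 15 and 19.2. Among Hsp70 relatives, Hspa4l, a second Hsp110, swung by 1.06 ± 0.175, 1.23 ± 0.15 and 1.09 ± 0.14 in the SIRT6 KO and the SIRT1 cohort's WT and KO, with peaks between ZT 17.6 and 20.1, and by 0.88 ± 0.25 in the SIRT6 cohort's WT, which missed the threshold (adjusted p = 0.0699).

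The small heat shock protein gene Hspb1 was rhythmic in all 4 sets, with amplitudes of 1.28 ± 0.19, 1.37 ± 0.23, 1.24 ± 0.26 and 1.74 ± 0.24 and peaks at ZT 19, 19.3, 20.1 and 21.2; it was the only 1 of 4 tested in its list. Of 13 Hsp40 and co-chaperone genes 2, 4, 5 and 5 were rhythmic, with Dnaja2 and Dnajb6 peaking between ZT 10.8 and 13.4 and Dnajb2 between ZT 18 and 20. The CCT chaperonin, which folds actin and tubulin, had 0, 4, 2 and 1 of 8 subunits past the threshold, and the mitochondrial set 2, 2, 2 and 3 of 10, with the Hsp60 partner Hspe1 in every set. Chaperones of the endoplasmic reticulum, which answer to another stress pathway, were rhythmic for 0, 8, 12 and 10 of 14 genes. Their peaks included ZT 16.8 for Hspa5 in the SIRT6 KO, ZT 20.2 for Hspa5 in the SIRT1 KO, and ZT 23.2 for Sdf2l1 in the SIRT1 cohort's WT. Of 5 genes of the HSF factors and their regulators, Sqstm1 peaked in the light, between ZT 0.6 and 3.6, in all 4 sets, and Hsf4 at ZT 13.3 and 13.6 in the SIRT1 cohort.

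The averaged genotype difference passed for few network genes. In the SIRT6 KO 2 of 71 were higher and 0 lower: Dnaja4, an Hsp40, by 0.44 ± 0.13 (limma adjusted p = 0.0401, lost without any 1 of 18 of the 36 arrays) and Clpp, the mitochondrial matrix protease, by 0.15 ± 0.04 (0.0114). In the SIRT1 KO 1 of 71 was higher and 0 lower: Clpb, a mitochondrial disaggregase, by 0.20 ± 0.04 (0.0047). By sign alone 24 of 71 were higher in the SIRT6 KO (median -0.03) and 47 of 71 in the SIRT1 KO (median 0.03). Hspb1 lay just outside the threshold in the SIRT6 cohort, at -0.32 ± 0.10 (adjusted p = 0.0542), and at 0.12 ± 0.12 in the SIRT1 cohort. The difference between the 2 effects passed for 5 of the 71 (7.04%), a share near that of all genes, of which 3.22% passed as higher and 2.54% as lower. Higher in the SIRT1 effect were Hspa4 by 0.16 ± 0.05 (adjusted p = 0.0408), Ppp5c by 0.18 ± 0.05 (0.0352), Tcp1 by 0.17 ± 0.05 (0.0347) and Clpb by 0.19 ± 0.06 (0.0407). Clpp was lower by 0.21 ± 0.05 (SIRT1 minus SIRT6 -0.21, 0.00378). The call of Hspa4 ended without any 1 of 30 of the 72 arrays, that of Clpb without any 1 of 31, and those of Ppp5c and Tcp1 without any 1 of 10. The Tcp1 difference reversed its sign when the mean of all its probe sets was used. Over all 71 genes 0 passed for a difference in rhythm in either cohort.

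Other RNA-binding and splicing genes linked to temperature were set beside Cirbp. Of 12 tested, 1, 5, 5 and 6 were rhythmic in the 4 sets. Hnrnpdl and Srsf5 peaked in the light as Cirbp did, each in 3 sets, Hnrnpdl between ZT 6.4 and 8.8 with amplitudes of 0.35 to 0.60 and Srsf5 between ZT 4.7 and 6.6 with amplitudes of 0.37 to 0.70, while Tra2a, a splicing activator, peaked at ZT 21 and 20.2 in the SIRT1 cohort's WT and KO (1.23 ± 0.12 and 0.93 ± 0.12). All 12 read lower in the SIRT1 KO (median -0.09), and 2 passed: Clk1, the kinase of splicing factors, at -0.20 ± 0.05 (adjusted p = 0.0393, lost without any 1 of 23 arrays) and Rbmx at -0.19 ± 0.05 (0.0289, lost without any 1 of 4). Of the same genes 0 of 12 passed in the SIRT6 cohort (median -0.02).

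The clock itself ran in all 4 sets, with 13, 16, 16 and 16 of 16 core clock genes rhythmic and 0 with a difference in rhythm in either cohort. As references of clock time, Dbp peaked at ZT 8.3, 8.6, 10.2 and 9.5 and Arntl at ZT 21.2, 21.2, 22 and 21.5 in the SIRT6 cohort's WT and KO and the SIRT1 cohort's WT and KO. Over the 24 group means the genes most like the heat shock average were Ogfod1 (r = 0.95), Chordc1 (0.94), P4ha1 (0.93), Srprb (0.92) and Mgat2 (0.92). Those most like Cirbp were Dyrk1b (0.94), Sgms2 (0.94), Ap4m1 (0.94), Hykk (0.94) and Cir1 (0.93). These likenesses were picked as the highest of all genes tested and are a description.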

How the data were processed

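Mouse liver RNA was measured on 72 single-colour Affymetrix arrays. Per the submitters' processing notes, Affymetrix Expression Console 1.1.1 and PLIER 2.0 were used; settings and genome build: not given in the sources used here. Values deposited by the authors are linear probe set intensity; how the authors normalized it is not stated. Of 41345 probe sets 23521 carry 1 gene symbol. Values were taken as log2(intensity + 16), with 1 probe set per gene (highest mean), and the lowest 40% of genes (under 6.00) left out. limma 3.58.1 in R 4.3.3 (empirical Bayes with trend, Benjamini-Hochberg over 13308 genes, threshold 0.05) gave KO minus WT over 12 group means, 24 h cosines (standard errors by the delta method), genotype by cosine terms, and the difference between knockout effects over 24 group means. Pairs of the 9 members (36 a cohort) were tested by permuting arrays within groups. The KO difference within a cohort, the cosine fit in WT, the genotype by cosine terms and the pair test were tried on simulated data.

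The members and lists were chosen with earlier results of these data known. Named are the members, Sirt6, Sirt1, Dbp and Arntl, up to 4 genes with the smallest p per list and test, and the 5 genes most like Cirbp and the heat shock average; the genotype differences of Hspb1, the SIRT6 WT rhythms of Hspa4l and Cacybp, the SIRT1 rhythms of Chordc1 and the gene with a difference in rhythm were named after their values were seen. Alternatives were other scalings, pseudocounts of 1 and 64, filters of 0 and 60%, array weights, a replicate block, no trend, all probe sets, an F test over times, light and dark phases, and each array left out. The number of arrays limits the precision.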

Additional observations from a re-analysis of the deposited data

Results flagged for a closer look

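Of the genes outside the 9 members, 8 that the text names differed between the 2 knockout effects by the test of the difference itself over all 72 arrays (limma, adjusted over all genes). The values are the SIRT1 effect minus the SIRT6 effect. Among chaperones they were 0.16 for Hspa4, 0.18 for Ppp5c, 0.17 for Tcp1, 0.19 for Clpb and -0.21 for Clpp. The value of Tcp1 reversed its sign when the mean of all its probe sets was used. Hspa4 differed by -0.08 ± 0.04 (SE) in the SIRT6 KO and by 0.07 ± 0.03 in the SIRT1 KO, with adjusted p of 0.192 and 0.228, so neither effect passed by itself. The acute phase genes Orm3 and Apcs, which encode plasma proteins of inflammation, differed by -1.91 and -0.69. Orm3 was 1.53 ± 0.34 higher in the SIRT6 KO (adjusted p = 0.00557), and Apcs was 0.41 ± 0.08 lower in the SIRT1 KO (KO minus WT -0.41, adjusted p = 0.00963). Sirt6 differed by -0.59, since its probe set was higher in the arrays labelled SIRT6 KO.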

How the results depend on the processing

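The directions of the 8 heat shock genes were the same under quantile normalization, centring and array weights in the SIRT6 cohort; in the SIRT1 cohort Hspa8 turned under the first 2 (0.01 and 0.03), and Hsp90aa1 read -0.02 with array weights. The SIRT1 value of Hspa8 was also 0.01 with the mean of all probe sets, and that of Cirbp turned sign without any 1 of 7 arrays; none of these was past the threshold. Of the single-gene values past the threshold, 1 reversed: the Tcp1 difference between the 2 knockout effects was -0.0174 with the mean of all probe sets (0.17 as reported; the cause was not tested). Under the other settings 2031 values kept their side of the threshold and 118 calls were lost, and with 1 array left out 4516 and 308. No member's call for the KO difference or the difference in rhythm changed. Counts of genes past the threshold moved by over 1.5 times as follows. With array weights the KO difference gave 2623 genes in the SIRT6 cohort (as reported 880) and 1044 in the SIRT1 cohort (as reported 302), the difference between effects 2439 (as reported 767) and the SIRT6 WT rhythm 2565 (as reported 1349). With centred medians the SIRT1 KO difference gave 775 and the difference between effects 1619. The F test over times, which spends more coefficients, gave 410 and 480 for the SIRT6 WT and KO rhythm and 1266 for the SIRT1 WT (as reported 1349, 1415 and 2440). The difference in rhythm in the SIRT6 cohort (as reported 1) gave 0 with quantile normalization, centring, a pseudocount of 1, no filter, the 60% filter, the replicate block and the F test, 6 with array weights, 13 when adjusted over rhythmic genes, and 0 to 3 with 1 array left out. Leaving out 1 array gave 150 to 436 for the SIRT1 KO difference, where 8 of 36 arrays moved it by over 1.5 times (150, 160 and 174 without WT replicate 3 at ZT 0, 3 at ZT 4 and 1 at ZT 12, and 167, 196, 196, 192 and 198 without KO replicate 3 at ZT 0, 3 at ZT 4, 3 at ZT 8, 2 at ZT 20 and 3 at ZT 20), and 10 to 22 for the SIRT1 pairs (as reported 19). Pairs within the light phase were 2 and 3 and within the dark phase 0 and 0, over 18 arrays each (as reported 16 and 19). Removing the leading component, chosen after seeing the data, left 15 and 15. With centred medians the 1 Cirbp pair past the threshold in the SIRT1 cohort was the positive one with Ahsa1. Replicate numbers were not taken to pair the samples, and whether they do was not tested. Same-numbered WT and KO arrays of a time correlated over 0.1 in 11 of 18 and 6 of 18 cases, and 15 and 10 of 36 arrays were closest to their own number. The median r of those same-time cases was 0.255 in the SIRT6 cohort (-0.361 to 0.743) and 0.0275 in the SIRT1 cohort (-0.284 to 0.37). Between groups, arrays of unlike number had a median r of -0.0265 and 0.00172. The replicate block gave 849 and 288 genes for the KO difference and 14 and 19 pairs, of which 2 and 0 were with Cirbp (3 and 1 as reported).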

Other observations

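The fitted peaks of the members lay later in the SIRT1 cohort than in the SIRT6 cohort, but no member's shift passed the test. The shift was tested by cohort by cosine terms within each labelled genotype, a test added after the peak times were seen. In WT the fitted peaks of all 9 members were later, by a median of 2.69 h, with the least shift in Hspa2 (0.06 ± 1.23 h, SE) and the largest in Hspa8 (3.71 ± 1.48 h). In KO all 9 were later by a median of 1.79 h, from 0.22 ± 1.00 h in Ahsa1 to 5.38 ± 1.34 h in Hspa1b. None of the 9 passed in either genotype (limma adjusted p from 0.165 to 0.945 in WT and from 0.152 to 0.92 in KO), and 0.0827% and 0.586% of all genes did. Genes rhythmic in both cohorts were later by a median of 1.35 h in WT (713 genes) and 0.47 h in KO (878 genes), and the core clock genes among them by 1.64 h (13 genes) and 0.48 h (16 genes). Strain, cohort and any difference in how the cohorts were collected cannot be told apart.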
